A study of Mus musculus with 3 samples.

Results

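The genes described here are the hnRNP and SR splicing factors, taken from the deposited gene table as protein-coding genes whose symbol begins with Hnrnp or is Srsf followed by digits. The rule found 31 genes among 54532 in the table, 20 of them Hnrnp genes and 11 Srsf genes, and used no measured value. RNA came from the hippocampus of C57BL/6 mice aged 10 months, and each of 3 genotypes was represented by 1 library. The genotypes were WT, PS19, and PS19 mice labelled Zbp1+-, written here as PS19 Zbp1+/-. PS19 is a model of tau pathology, in which the mouse Prnp promoter drives a mutant human tau. The third group carries the same transgene, and the label gives it 1 intact allele of Zbp1, which encodes a sensor of Z-form nucleic acids. The labels do not say whether animals were pooled, and the transgene itself was not analysed here.

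Heterogeneous nuclear ribonucleoproteins (hnRNPs) coat nascent transcripts and often keep exons out of the mRNA. SR proteins, which carry a tail rich in arginine and serine, bind exonic enhancers and recruit the spliceosome. The balance between both classes sets the use of many alternative exons in neurons, among them exons of Mapt, the gene for tau. Genes of both families hold down their own output through unproductive splicing, in which a poison exon or a retained intron sends the transcript to decay or keeps it in the nucleus. SR proteins are switched by phosphorylation by the Srpk kinases in the cytoplasm and the Clk kinases in the nucleus.

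With 1 library per genotype no difference below has a replicate check, and no p-value is given. Whole reads recovered from the table summed to between 16400328 and 17109734 per library. Levels are in FPKM, which divides the fragments of a gene by its length and by library size. Differences are on the log2(FPKM + 1) scale. Read ratios are per library size implied by the FPKM values, with exact (Clopper-Pearson) 95% intervals that cover counting error only. For PS19 Zbp1+/- that size was 15826984, below its 17109734 reads, while for WT and PS19 it lay above the reads. The intervals do not cover this scaling. A gene entered a comparison if its FPKM reached 1 in at least 1 of both libraries, and all 31 genes did so throughout. Where 3 values follow each other, they stand in the order WT, PS19 and PS19 Zbp1+/-. Zbp1, the targeted gene, had 5, 91 and 0 reads. The 0 reads allow up to 3 by counting error and do not settle the heterozygous label. All 10 neuronal markers, Prox1 of the dentate gyrus included, were at an FPKM of at least 1 in each library, with sums of 848, 729 and 1016. Single markers did not follow the sum, with 5 higher and 5 lower than WT in PS19 Zbp1+/-. Slc17a7 had an FPKM of 206, 172 and 371, and Prox1 8.76, 9.51 and 5.2. The library labelled PS19 Zbp1+/- stood apart in other genes. Reads of Xist numbered 11062, 13350 and 0, and those of the Y-linked Ddx3y 0, 0 and 711. The 8 choroid plexus markers summed to an FPKM of 3410, 2167 and 25.7, and 3 of the 8 reached an FPKM of 1 in PS19 Zbp1+/-. Genes with a single read numbered 2467, 2465 and 882. Sex, dissection and genotype therefore cannot be told apart in comparisons with that library, and fewer cells of a type cannot be told apart from less RNA per cell in any of them.

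Splicing factor transcripts were abundant in all 3 libraries. The median FPKM of the 31 genes in WT was 36.3, against 6.69 over the 12860 protein-coding genes that reached an FPKM of 1 in any library. Among the hnRNPs, Hnrnpa0, an intronless member of the A/B group, had the highest FPKM, with 92.5, 75 and 88.5. Hnrnpa2b1, which also carries mRNA into dendrites, followed with 74.1, 64.7 and 53.9, and Hnrnpa1, a repressor of exon inclusion, with 70.3, 61 and 61.3. WT was the highest library for each of these 3 genes, and the order of the other libraries differed from gene to gene. Among the SR genes the highest mean levels were those of Srsf5, Srsf2 and Srsf7. Srsf5 had 85.6, 76.3 and 46.1, with PS19 Zbp1+/- well below both others. Srsf2, an activator that reads exonic enhancers, had 44.7, 40.5 and 40.8, and Srsf7, a paralog of Srsf3 with a zinc knuckle, had 48.9, 41.6 and 35.2. The lowest levels in WT were those of Hnrnpr, at an FPKM of 4.91, Srsf4 at 5.66 and Srsf12 at 6.66. The place of a gene in this order depends on the length it is divided by. The table's gene lengths equal the union of annotated exons for 28 of the 31 genes, and per length of the longest coding transcript Hnrnpa2b1 ranked first in WT and Srsf5 second, while Srsf7 moved from rank 7 to 18 and Hnrnpl from 15 to 7. Hnrnpr had 1880 reads in WT over a gene length of 22199 bases, so its low FPKM is not a low read count.

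**Figure D1:**
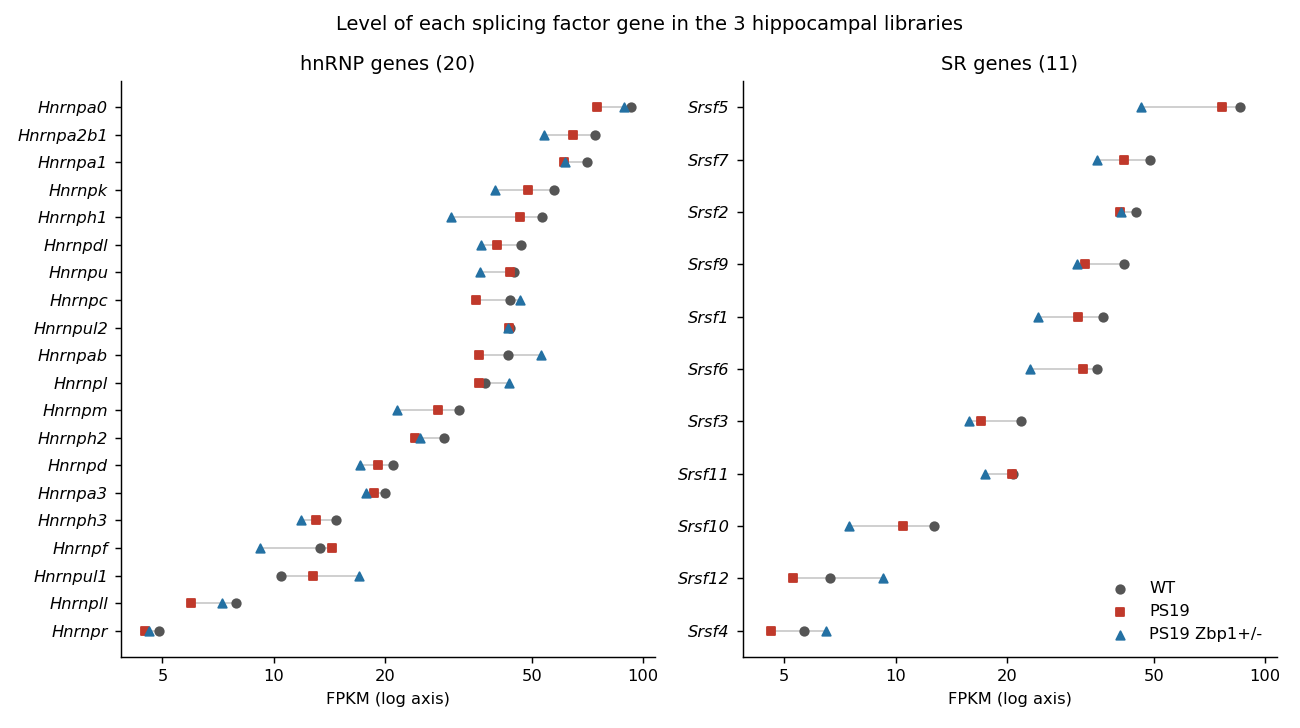
FPKM (log axis) of each hnRNP gene (left) and SR gene (right) in the WT, PS19 and PS19 Zbp1+/- libraries, 1 point per library. WT is the rightmost point for 24 of the 31 genes, against 29.3% of the 12875 genes that reached an FPKM of 1 in any library, and Srsf5, from 85.6 to 46.1, and Hnrnph1, from 53.1 to 30.1, span wide intervals with PS19 Zbp1+/- lowest.

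Between PS19 and WT, the question is how splicing factor transcripts stand in the tau hippocampus. The answer was a small difference shared by nearly all members. As deposited, 29 of the 31 genes were lower in PS19 than in WT, 18 of 20 hnRNPs and 11 of 11 SR genes, where 53.7% of the 12703 genes tested were lower, and under TPM 23 of 31 were lower, where 38.2% of genes were. The median difference was -0.18 for the hnRNPs and -0.23 for the SR genes, against -0.03 over all genes tested. None of the 31 genes was 2-fold apart, where 2.5% of genes were, and none was 1.5-fold apart, where 9.05% were. Counting error was smaller than these differences for most members, since the interval of the read ratio lay below 1 for 25 genes (32.7% of all genes) and above 1 for 1 gene (28.3%). As deposited, this lower level was shared by other abundant transcripts. Among genes with a mean FPKM of at least 20, 74.5% were lower in PS19 and their median was -0.18, and the 21 members in that range, all lower, had a median of -0.19.

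The hnRNP genes of PS19 furthest below WT were Hnrnpll, Hnrnpc and Hnrnpa0. Hnrnpll, a paralog of Hnrnpl known from exon skipping in activated lymphocytes, had an FPKM of 7.9 and 5.97, a read ratio of 0.756 (0.701 to 0.815). Hnrnpc, which binds uridine tracts and competes there with splice site recognition, had 43.7 and 35.3, a ratio of 0.809 (0.768 to 0.852), and Hnrnpa0 had a ratio of 0.81 (0.774 to 0.847). As deposited, these 3 genes lay above their PS19 values in PS19 Zbp1+/-, but under TPM only Hnrnpc did, with -0.045 for Hnrnpa0 and -0.0082 for Hnrnpll. Hnrnpul1, a nuclear protein linked to DNA repair and transcription, went the other way, with 10.5 and 12.8, a ratio of 1.22 (1.14 to 1.31), and it was the member furthest above WT. For Hnrnpf, which binds G-runs, the interval reached from 0.973 to 1.2, and for Hnrnpul2 from 0.948 to 1.03, so no difference was detectable at this depth. Among the SR genes Srsf3, the smallest SR protein and a factor in mRNA export, had an FPKM of 21.9 and 17.1, a ratio of 0.781 (0.739 to 0.824). Srsf9, a close relative of Srsf1, had 41.5 and 32.5, a ratio of 0.782 (0.717 to 0.853), and Srsf12, a relative of Srsf10, had 6.66 and 5.29, a ratio of 0.794 (0.678 to 0.929). The SR genes nearest to WT were Srsf11, with an interval from 0.946 to 1.05, Srsf6 at 0.919 (0.872 to 0.969) and Srsf2 at 0.906 (0.853 to 0.962).

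**Figure D2:**
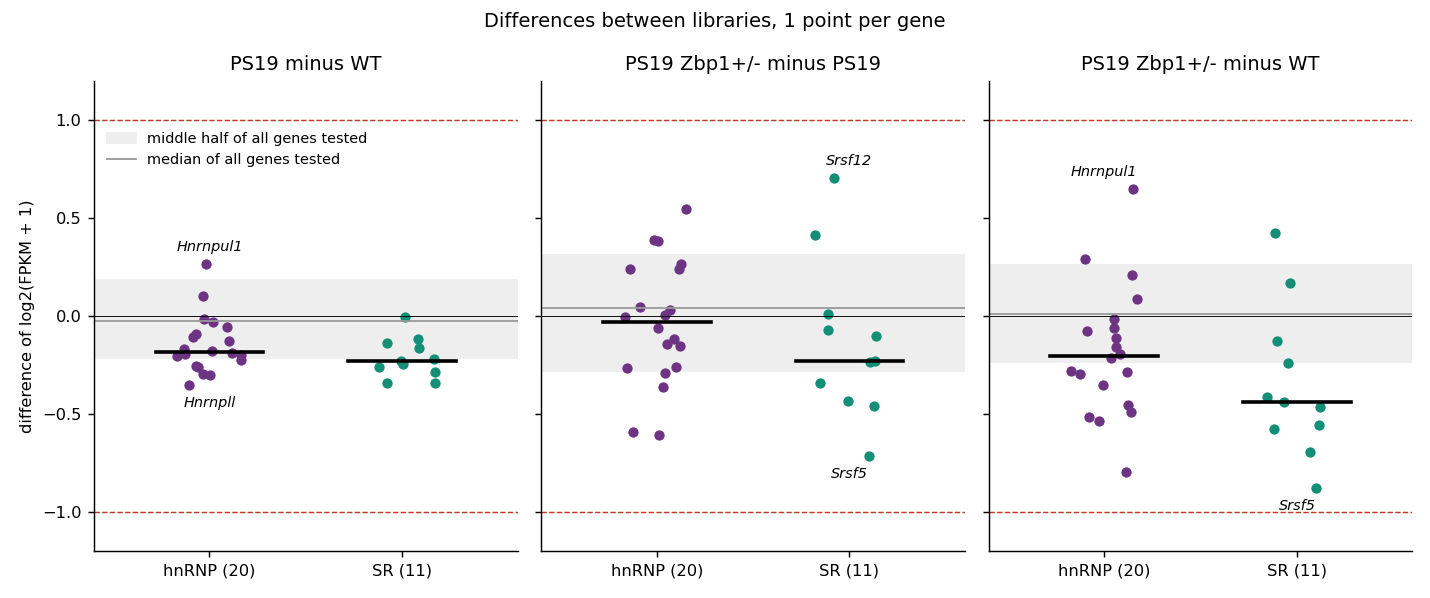
Difference of log2(FPKM + 1) between libraries for the 20 hnRNP and 11 SR genes (1 point per gene, black bar at the median), with the middle 50% and the median of all protein-coding genes tested in grey and the 2-fold limits dashed. In PS19 minus WT the points lie in a narrow band around medians of -0.18 and -0.23, while both comparisons with PS19 Zbp1+/- spread the genes from Srsf5 at the bottom (-0.72 and -0.88) to Srsf12 (0.71) and Hnrnpul1 (0.65) at the top.

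Comparison of PS19 Zbp1+/- with PS19 and with WT asks how the pattern stands in the library labelled Zbp1+-. Genotype, sex and dissection cannot be told apart in it, so the values do not describe Zbp1 dosage alone. Members spread in both directions in this library. Against PS19, 19 of the 31 genes were lower, 11 hnRNPs and 8 SR genes, where 46.3% of 12772 genes were lower. Against WT, 25 of 31 were lower, 16 hnRNPs and 9 SR genes, where 49% of 12436 genes were lower. None of the 31 genes was 2-fold apart in either comparison, where 7.16% of genes were against PS19 and 3.35% against WT, although Srsf5 passed 2-fold against WT after rescaling to TPM or by total reads. At 1.5-fold, 4 of 31 genes were apart against PS19 (21.5% of all genes), namely Srsf5, Hnrnph1 and Hnrnpf below and Srsf12 above. Against WT there were 4 as well (13.8%), Srsf5, Srsf10 and Hnrnph1 below and Hnrnpul1 above. The interval of the read ratio lay below 1 for 15 genes (32.6%) and above 1 for 8 (39%) against PS19, and for 22 (31.3%) and 5 (35.3%) against WT. The median against PS19 was -0.03 for the hnRNPs, turning to 0.054 after correction for length and GC content, and -0.23 for the SR genes, beside 0.04 over all genes. Against WT it was -0.20 for the hnRNPs and -0.44 for the SR genes, beside 0.01. As deposited, abundant genes as a whole stood on the other side here. Genes with a mean FPKM of at least 20 had a median of 0.10 against WT and 39.5% of them were lower, while 16 of the 19 members in that range were lower, with a median of -0.35. Against PS19, 22.9% of such genes and 12 of 19 members were lower. The abundant genes were not compared under TPM. That scaling moved the median of all genes to -0.21 against PS19 and -0.13 against WT. As deposited, the 3 libraries stood in the order WT, PS19, PS19 Zbp1+/- from high to low for 18 of the 31 genes, 10 hnRNPs and 8 SR genes, and for 15.8% of the 12875 genes that reached an FPKM of 1 in any library. Also as deposited, PS19 was the lowest library for 11 genes, against 37.7% of all genes, and the highest for Hnrnpf only, against 30.6%. The comparisons share libraries, so these counts are not independent of each other.

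The SR genes of PS19 Zbp1+/- furthest below WT were Srsf5, Srsf10 and Srsf6. Srsf5 (ENSMUSG00000021134; GRCm38 chromosome 12, 80945504 to 80950507), a factor that binds exonic enhancers, had 5887, 5259 and 2908 reads. Its read ratio was 0.538 against WT (0.515 to 0.563) and 0.604 against PS19 (0.577 to 0.632), against 0.892 (0.859 to 0.925) for PS19 over WT. Srsf10, which turns from activator to general repressor when it loses its phosphates, had an FPKM of 12.7, 10.5 and 7.47, a ratio of 0.588 against WT (0.539 to 0.64). Srsf6, which acts on tau exon choice among others, had 35, 32.2 and 23.1, a ratio of 0.660 against WT (0.621 to 0.7). Srsf1, the prototype SR protein, had 36.3, 31.1 and 24.3, a ratio of 0.670 (0.635 to 0.707). As deposited, all 4 genes stood in the order WT, PS19, PS19 Zbp1+/-, while TPM put Srsf6 above WT in PS19. Srsf3, Srsf7, Srsf9 and Srsf11 stood in that order as well, Srsf11 not under TPM, with ratios against WT from 0.719 to 0.84. Srsf9 did not differ detectably from PS19, with an interval from 0.865 to 1.05.

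Srsf12 and Srsf4 were the SR genes with their highest value in PS19 Zbp1+/-. Srsf12, a splicing repressor related to Srsf10, had 362, 288 and 462 reads, a ratio of 1.75 against PS19 (1.51 to 2.04) and 1.39 against WT (1.21 to 1.6). Srsf4, the longest-tailed relative of Srsf5 and Srsf6, had 348, 284 and 365 reads, a ratio of 1.4 against PS19 (1.2 to 1.65), while its interval against WT, from 0.985 to 1.33, spanned 1. PS19 was thus the lowest library for both genes. Close relatives stood apart: relative to PS19, Srsf4 was higher and Srsf5 and Srsf6 were lower in PS19 Zbp1+/-, and Srsf12 was higher and Srsf10 lower. Srsf2 lay between them, with a ratio of 1.01 against PS19 (0.947 to 1.07). The relatives also differ in G + C of the longest coding transcript. Srsf4 has 56.8%, Srsf5 44.6% and Srsf6 42.8%, and Srsf12 has 44.9% and Srsf10 41.4%. Over all genes the median against PS19 rose from -0.19 in the lowest G + C decile to 0.30 in the highest. Correction for length and G + C kept the signs of these relatives against PS19, and the part of base composition was not tested further.

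Relatives stood apart among the hnRNP genes as well. Of the F/H group, which binds G-runs near splice sites, Hnrnph1 (ENSMUSG00000007850; chromosome 11, 50376990 to 50386528) had 5352, 4688 and 2786 reads, a ratio of 0.567 against WT (0.542 to 0.594) and 0.649 against PS19 (0.619 to 0.68). Hnrnpf had an FPKM of 13.3, 14.4 and 9.21, a ratio of 0.641 against PS19 (0.569 to 0.721). As deposited, it was the only member with its highest value in PS19. Hnrnph3 had 14.7, 13 and 11.9. The fourth gene of the group, the X-linked Hnrnph2, had 29, 24 and 24.8, a ratio of 1.03 against PS19 (0.966 to 1.1), so no difference from PS19 was detectable. Hnrnpm, which binds GU-rich introns, had 31.7, 27.9 and 21.5, and Hnrnpk, a poly(C)-binding protein, had 57.3, 48.9 and 39.7. Their ratios against WT were 0.679 (0.637 to 0.723) and 0.694 (0.667 to 0.722). Hnrnpu, a scaffold of nuclear chromatin, had 44.6, 43.7 and 36.1, so that its WT and PS19 values were close and PS19 Zbp1+/- was lower.

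On the other side stood Hnrnpul1, Hnrnpab, Hnrnpc and Hnrnpl. Hnrnpul1 (ENSMUSG00000040725; chromosome 7, 25721165 to 25754757) had 1564, 1914 and 2329 reads, a ratio of 1.62 against WT (1.52 to 1.73). As deposited, it was the only member with its lowest value in WT. Its paralog Hnrnpul2 had an FPKM of 43.6, 43.2 and 43.1, with each of its 3 intervals spanning 1. Hnrnpab, a relative of Hnrnpd found in RNA granules, had 43.1, 35.9 and 52.9, a ratio of 1.47 against PS19 (1.38 to 1.57), whereas its relatives Hnrnpd and Hnrnpdl, both on chromosome 5, had ratios of 0.895 (0.843 to 0.95) and 0.902 (0.857 to 0.948) against PS19. Correction for length and G + C turned the sign of Hnrnpd. Hnrnpc had a ratio of 1.32 against PS19 (1.25 to 1.39), and an FPKM of 46.5 in PS19 Zbp1+/-. Its difference from WT was 0.09 as deposited, -0.066 under TPM and -0.0645 under total reads. Hnrnpl, which binds CA repeats, had 37.4, 35.9 and 43.4, a ratio of 1.21 against PS19 (1.15 to 1.26), and its paralog Hnrnpll had 1.21 (1.12 to 1.31). Under TPM the differences from PS19 were -0.013 for Hnrnpl and -0.0082 for Hnrnpll, and correction for length and G + C gave -0.026 for Hnrnpl against WT, so these directions depend on the scaling. In the A/B group Hnrnpa0 had a ratio of 1.18 against PS19 (1.13 to 1.24), which TPM turned to a difference of -0.045, and Hnrnpa2b1 0.833 (0.805 to 0.863), while the intervals of Hnrnpa1 and Hnrnpa3 spanned 1. Hnrnpr, related to the granule protein Syncrip, had 4.91, 4.48 and 4.61 with an interval against PS19 from 0.96 to 1.1.

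Promoter sequence is shown for the genes at the extremes of each family in PS19 Zbp1+/- against WT, among genes whose upstream window holds at least 200 bases free of annotated exons, so that windows of genes at opposite ends can be read side by side. RefSeq (GRCm38.p6) gave a start for 29 of the 31 genes, and Hnrnpll and Hnrnpul2 are named only. The windows hold the 250 bases before the start, shortened to 230 for Srsf4, and are written 5′ to 3′. Capitals mark GGGCGG or its complement CCGCCC (the GC box), and CCAAT or its complement ATTGG. Among genes with such a window, the pair in front had the lowest values of their families in PS19 Zbp1+/- against WT and the other pair the highest. Without such a window, Srsf5 and Srsf10 lay below Srsf6, and Srsf12 lay above Srsf4. The interval of Srsf4 against WT spanned 1.
Hnrnph1 (chr11:50376740-50376989, plus strand): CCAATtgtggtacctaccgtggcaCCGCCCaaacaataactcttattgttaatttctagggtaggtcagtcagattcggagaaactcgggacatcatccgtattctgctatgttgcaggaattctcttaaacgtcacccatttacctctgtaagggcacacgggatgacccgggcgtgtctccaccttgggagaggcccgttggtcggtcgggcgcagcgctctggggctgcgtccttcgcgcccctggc
Srsf6 (chr2:162931258-162931507, plus strand): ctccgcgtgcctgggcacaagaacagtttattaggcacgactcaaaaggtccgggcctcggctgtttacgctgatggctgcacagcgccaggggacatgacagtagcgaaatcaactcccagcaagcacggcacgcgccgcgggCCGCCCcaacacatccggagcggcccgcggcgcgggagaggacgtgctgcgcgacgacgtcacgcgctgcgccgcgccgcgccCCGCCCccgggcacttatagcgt
Hnrnpul1 (chr7:25754760-25755009, minus strand): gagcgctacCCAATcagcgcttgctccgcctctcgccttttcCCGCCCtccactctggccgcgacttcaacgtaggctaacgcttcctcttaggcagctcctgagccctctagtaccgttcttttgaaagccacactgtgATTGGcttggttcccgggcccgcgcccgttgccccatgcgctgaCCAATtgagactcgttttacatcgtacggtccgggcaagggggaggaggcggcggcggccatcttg
Srsf4 (chr4:131873387-131873616, plus strand): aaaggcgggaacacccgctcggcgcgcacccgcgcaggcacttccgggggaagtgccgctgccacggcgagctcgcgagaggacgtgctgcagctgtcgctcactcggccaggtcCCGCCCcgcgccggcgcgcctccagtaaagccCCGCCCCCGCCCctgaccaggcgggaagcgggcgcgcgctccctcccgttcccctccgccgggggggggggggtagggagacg

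Each of the 4 windows holds a GC box, with 1 match in Hnrnph1, 2 in Srsf6, 1 in Hnrnpul1 and 3 in Srsf4, counted on both strands with overlaps. CCAAT is present in Hnrnph1 (1 match) and Hnrnpul1 (3 matches). The relatives Srsf4 and Srsf6, which stood on opposite sides of PS19 in PS19 Zbp1+/-, share a run of 15 identical bases, gagaggacgtgctgc. No other pair of these windows shares more than 9. Over the 29 genes with a start, 23 windows of 250 bases (79.3%) hold a GC box and 15 (51.7%) CCAAT, against 60.2% and 36% of the 10076 expressed protein-coding genes in the RefSeq table. TATAAA or its complement is in 3 (10.3%), against 6.06%, and the palindrome TGACGTCA in 0, against 2.72%. The median window held 65.2% G + C and 23 CpG, against 60.4% and 16. These are matches of letters in the window, found in both pairs.

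Members shared features of their annotated transcripts that the rule did not use. GENCODE release M21 lists at least 1 transcript marked for nonsense-mediated decay for 19 of the 31 genes (61.3%), 9 of 11 SR genes among them, against 27.6% of the expressed protein-coding genes. A retained-intron transcript is listed for 22 of 31 (71%), against 57%. Related lists had such transcripts at like or higher shares, 73.9% and 91.3% of SR-related proteins and 61.5% and 76.9% of SR kinases and importers, so these traits are not particular to the members. The table gives 1 value per gene, so productive and unproductive transcripts were not separated. The 24 genes with either kind had a median difference of -0.28 between PS19 Zbp1+/- and WT, and the 7 without had -0.21. Between PS19 and WT the order was the other way, with -0.17 and -0.26.

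The longest coding transcripts of the 31 genes were poorer in G + C, with a median of 44.9%, than those of expressed genes as a whole, with 50.5%. Across all genes tested the difference between PS19 Zbp1+/- and WT moved with base composition, from a median of -0.21 in the decile lowest in G + C to 0.20 in the highest. Over the 31 members the same relation had a correlation of 0.44 (Pearson) and 0.39 (Spearman), with all points taken from the same 2 libraries. The 15 members below the median G + C had a median of -0.44, with 14 of them lower than WT, and the 16 others had -0.12, with 11 lower. Subtracting the median of genes of like length and G + C moved the SR median from -0.44 to -0.29 and the hnRNP median from -0.20 to -0.10, and left 24 of 31 genes lower. Between PS19 and WT the same correlation over members was 0.14 (Pearson) and 0.02 (Spearman), and the decile medians lay between -0.12 and -0.002. The part of base composition in the differences was not tested beyond these values.

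**Figure D3:**
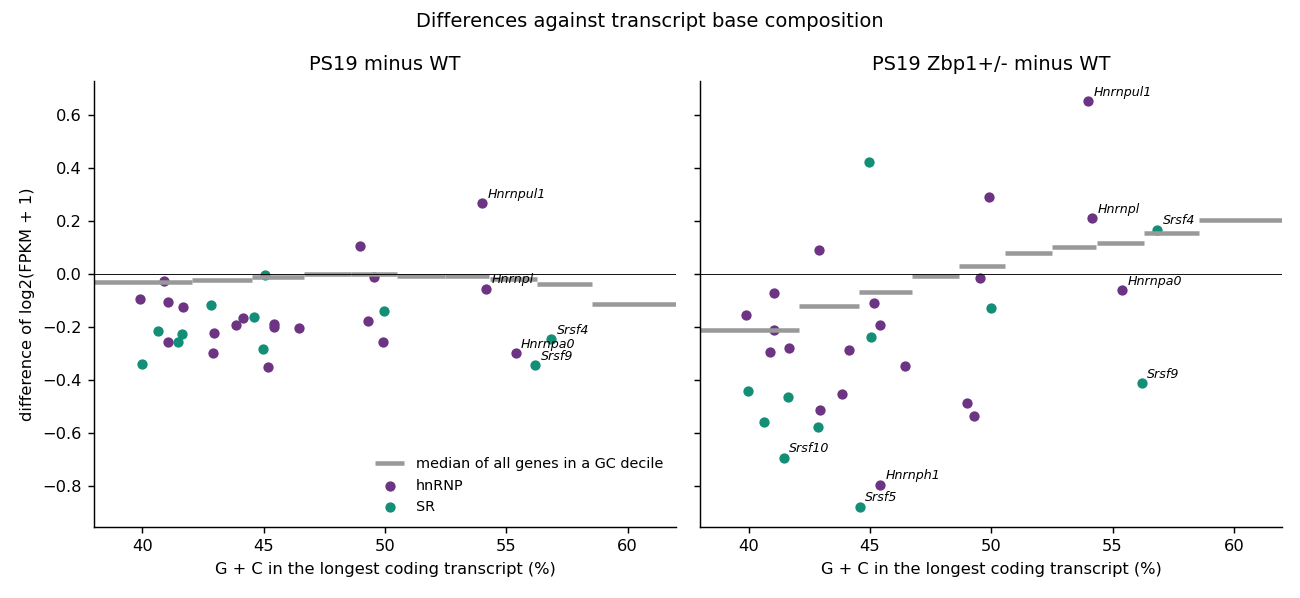
Difference of log2(FPKM + 1) against the G + C share of the longest coding transcript for the hnRNP and SR genes, with grey bars at the median of all genes in each G + C decile (the outer bars are drawn to the axis ends). The bars are nearly level in PS19 minus WT and climb from -0.21 to 0.20 in PS19 Zbp1+/- minus WT, where Srsf5, Hnrnph1 and Srsf10 lie well below the bar of their decile and Hnrnpul1 above it.

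Some of these genes share sequence with other loci, which limits how their reads can be assigned. Near-identical copies, many of them processed pseudogenes, were found for 15 members. Hnrnpa3, with 36 copies, had 832 reads on its copies in WT beside 1860 of its own, or 30.9% of the sum, against 32.2% in PS19 and 27.8% in PS19 Zbp1+/-. Hnrnpk had 10.1%, 10.9% and 14.8% on copies, Hnrnpa1 6.19%, 6.73% and 7.53%, and the other 12 members at most 4.52% in any library. With the copies' reads added, the ratio of Hnrnpk between PS19 Zbp1+/- and WT was 0.732 in place of 0.694, and that of Srsf5 0.543 in place of 0.538. That of Hnrnpa3 was 0.854 in place of 0.892, and its ratio between PS19 Zbp1+/- and PS19 0.898 in place of 0.955. Srsf2 overlaps Mettl23 and Mfsd11, Hnrnpab overlaps Phykpl, and Hnrnph3 overlaps Rufy2, each on the opposite strand. Hnrnpm, Srsf4, Srsf11, Hnrnpk and Hnrnpa3 overlap a gene on their own strand. The gene that overlaps Srsf4 had 46, 128 and 80 reads, highest in PS19, where Srsf4 itself was lowest. Since no source used here states that reads were counted by strand, reads in the overlaps cannot be told apart.

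Other genes of the splicing machinery were taken from 7 lists with 144 genes. No gene of these lists was 2-fold apart between PS19 and WT (2.5% of all genes), 4 of 139 were between PS19 Zbp1+/- and PS19 (7.16%), and 1 of 139 between PS19 Zbp1+/- and WT (3.35%). Between PS19 and WT the list named Sm proteins and U1 snRNP, Snrpa1 and Snrpb2 included, had 13 of 13 genes lower and a median of -0.30. Among the 13 genes of the Sm list Snrpn, the neuronal SmN protein, had an FPKM of 185, 131 and 179, and Snrpd1 had 35.2, 24.3 and 26.6. The U2 snRNP list had a median of -0.11 (0.02 under TPM) and the list of tri-snRNP, Prp19 complex and helicases -0.10 (0.02 under TPM), with Prpf8, the scaffold of the catalytic core, at 29.3 in WT and 35 in PS19. Proteins of the hnRNP class under other names had a median of -0.06 (0.06 under TPM), and the lowest was Matr3, a nuclear matrix protein, at 41.6 and 28.9 with a ratio of 0.694 (0.669 to 0.72). Of 23 SR-related proteins 12 were higher and 11 lower than WT, with a median of 0.06, and Srrm2, a scaffold of nuclear speckles, had 39.4 and 57.9, a ratio of 1.47 (1.43 to 1.51).

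Single kinases of SR proteins stood apart in PS19 Zbp1+/-. Clk1, a nuclear kinase of SR proteins, was the only listed gene 2-fold apart from WT on the log2(FPKM + 1) scale, with 2649, 2368 and 1142 reads, a ratio of 0.47 (0.438 to 0.504). After correction for length and G + C, 0 listed genes were 2-fold apart from WT (2.79% of all genes). Clk4, its close relative, had 1490, 1376 and 816 reads, a ratio of 0.597 (0.547 to 0.651), and was chosen after its values were seen. As deposited, both stood in the order WT, PS19, PS19 Zbp1+/-, as did Srsf5, Srsf10 and 15.8% of the 12875 expressed genes. Clk4 had a PS19 to WT ratio of 0.922, beside 0.919 for Srsf6, which TPM put above WT in PS19. Clk3 went the other way in PS19 Zbp1+/-, with a ratio of 1.15 against WT (1.05 to 1.25). Srpk3, a muscle-enriched kinase near the lower limit of the filter, had an FPKM of 2.56, 3.32 and 1.27, while Dyrk1b had 9.2, 9.92 and 15.2 and Dyrk2 11.2, 8.43 and 14.2. The median of the 13 genes on this list was 0.02 against WT, the value of Topors, so Clk1 and Clk4 do not describe the list. Of the SR-related list Tra2a, an SR-like activator, had 16.8, 15.5 and 8.52, a ratio of 0.506 against WT (0.468 to 0.547). Srrm4, a neuronal activator of microexons, had 5.38, 6.23 and 10.3, a ratio of 1.92 (1.76 to 2.09), and the list's median was -0.15. Rbm3, a cold-inducible RNA-binding protein, had 14.8, 15.5 and 7.89, and Snrpg, a Sm protein, 8.68, 8.14 and 4.19, both with their lowest value in PS19 Zbp1+/-.

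Tissue-specific splicing regulators held the 4 listed genes that were 2-fold apart between PS19 Zbp1+/- and PS19. Celf4, Celf6 and Khdrbs3 were at least 2-fold higher and Qk at least 2-fold lower, of 24 genes tested, and Celf4 is named for this count after its values were seen. Under TPM none of the 3 higher genes reached 2-fold (0.76 for Celf4, 0.92 for Celf6 and 0.84 for Khdrbs3), while Qk did (-1.33). After correction for length and G + C only Khdrbs3 of the 4 did (1.03). Khdrbs3, a regulator of neurexin splicing, had an FPKM of 47.2, 32.1 and 70.8, and Celf6 had 7.89, 5.38 and 13.4, so PS19 was the lowest library for both. Nova2, a regulator of axon guidance transcripts, had 8.96, 9.09 and 17.1. Qk, which governs myelin transcripts and is abundant in oligodendrocytes, had 23.1, 31.7 and 14.6, with PS19 highest. The summed FPKM of the 8 oligodendrocyte markers was 851, 1520 and 553, that of 8 astrocyte markers 577, 1436 and 696, and that of 8 microglial markers 127, 409 and 133. PS19 was the highest library for each of these sums. Single genes weighed heavily in them, with Gfap at 98.4, 768 and 112 and C1qa at 48, 205 and 39.4. All 8 astrocyte markers and 7 of 8 microglial markers were higher in PS19 than in WT. P2ry12 had 11.2, 10.1 and 8.66 and Tmem119 11, 12.4 and 10.2, and both intervals of PS19 over WT spanned 1. Ptbp3 had 3.91, 5.13 and 2.22, and Msi2 7.32, 9.72 and 6.87, with PS19 highest for both. Of the 31 hnRNP and SR genes, Hnrnpf alone had its highest value in PS19 as deposited, and its interval against WT spanned 1. TPM turned 6 others from below to above WT in PS19. The part of cell composition in these differences was not tested.

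**Figure D4:**
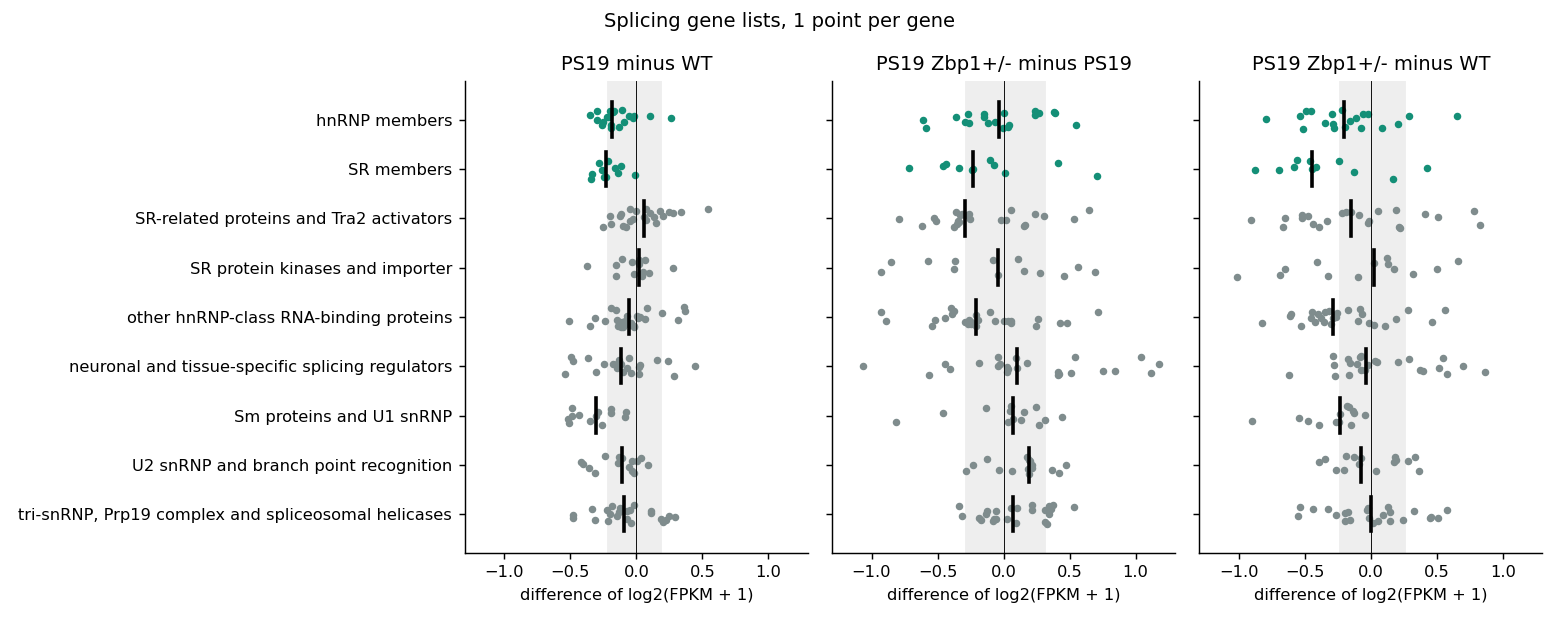
Difference of log2(FPKM + 1) for the hnRNP and SR genes (green) and 7 lists of other splicing genes (grey), 1 point per gene that passed the filter, with a black bar at each median and a grey band over the middle 50% of all genes tested. In PS19 minus WT the Sm protein list has the lowest median (-0.30), followed by the SR genes (-0.23), and in PS19 Zbp1+/- minus WT the SR genes have the lowest (-0.44), while Clk1 (-1.01) is the only listed gene past 2-fold.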

How the data were processed

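Total RNA of 3 hippocampal libraries was extracted with TRIzol and prepared with an NEB Next Ultra RNA kit, per the labels' protocols. The authors deposited 1 table of FPKM values for 54532 genes. Trim Galore 0.6.5, STAR 2.5.3a, featureCounts 2.0.4 and mm39 are named in the submitters' processing notes, without roles. Positions in the table equal those of GENCODE release M21 (GRCm38) for 98.33% of 54409 matched genes and 29 of the 31 members, so they are given as GRCm38. Annotation and strandedness are not given in the sources used here. FPKM times gene length gave whole reads (tolerance 0.01) for 100% of values, and implied library sizes of 17253479 (WT), 17287957 (PS19) and 15826984 (PS19 Zbp1+/-). That scaling differs from the read totals of 16746085, 16400328 and 17109734 and moves the differences with PS19 Zbp1+/-.

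Differences used a pseudocount of 1, with genes called at 2-fold. Reads carry no molecular identifiers, so they are not independent molecules. Members, lists and tests were chosen with earlier results of these data known. Genes named in full were the 3 highest and lowest of each family in each comparison, the 3 most abundant of each family, all members 1.5-fold apart, the extremes of each list, and Zbp1. Values of the other members (Srsf1, Hnrnpa3, Hnrnpd, Hnrnpdl, Hnrnph2, Hnrnph3, Hnrnpr and Hnrnpu) were added after they were seen, to complete the subfamilies. Copies were sought with BLAST 2.17.0 (90% identity over at least 200 bases and 50% of the copy). Alternatives varied pseudocount, filter, scaling, threshold, length and GC correction, and copies. The procedure was tested on simulated data. Software was scipy 1.17.1, pandas 2.3.3 and numpy 2.4.6 under Python 3.11.15, with figures from matplotlib 3.10.9.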

Additional observations from a re-analysis of the deposited data

How the results depend on the processing

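No replicate could be left out, and no paired analysis was possible because each genotype has 1 library. Pseudocounts of 0.1 and 0.5, no filter, a mean FPKM of at least 5 and centring on the median of all genes kept the sign of both family medians in each comparison, and no member was 2-fold apart under them. Rescaling to TPM moved the median of all genes to 0.08 (PS19 minus WT), -0.21 (PS19 Zbp1+/- minus PS19) and -0.13 (PS19 Zbp1+/- minus WT), and total reads moved the last 2 to -0.12 and -0.13. Both scalings multiply a whole library by 1 factor, so they shift the members with all other genes.

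Under TPM the hnRNP medians were -0.059, -0.31 and -0.36, the SR medians -0.10, -0.50 and -0.59, and the medians over the 7 lists 0.045, -0.23 and -0.24, in the same order of comparisons. TPM put 17 hnRNPs below PS19 in PS19 Zbp1+/-, where it put 70.1% of all genes below PS19, against 46.3% as deposited. Under total reads, PS19 Zbp1+/- minus PS19 gave -0.21 for hnRNPs, -0.41 for SR genes and -0.14 for the lists, and PS19 Zbp1+/- minus WT gave -0.36, -0.59 and -0.24. Each of these scalings put 1 SR gene, Srsf5, and 3 listed genes 2-fold apart from WT. Over all genes that share was 3.59% under TPM and 3.64% under total reads. TPM put 7 listed genes 2-fold apart from PS19 (8.82% of all genes), 0 of them higher, where 3 of 4 were higher as deposited. The pseudocount of 0.1 gave 2 listed genes 2-fold apart from WT (6.7% of all genes). Correction for length and GC content gave 0.054 (hnRNP) and -0.14 (SR) against PS19, and -0.10 and -0.29 against WT. It gave 2 listed genes 2-fold apart from PS19 (7.17% of all genes) and 0 from WT (2.79%). No p-value is given since there is 1 library per group. A 1.5-fold threshold gave 2 hnRNPs and 2 SR genes in each comparison with PS19 Zbp1+/-, and 16 listed genes of 139 in each. Over all genes that share was 21.5% against PS19 and 13.8% against WT. Chosen after seeing the data, a mean FPKM of at least 20 kept 13 hnRNPs (7 lower than PS19, 10 lower than WT) and 6 SR genes (5 lower than PS19) in PS19 Zbp1+/-, and 7 SR genes, 7 of them lower, in PS19 minus WT. The list median against PS19 was then 0.18. In that range 0 listed genes were 2-fold apart from WT (1.68% of all genes), because fewer genes were tested. Per length of the longest coding transcript, also chosen after seeing the data, the members' median FPKM in WT was 48.8. The cause of the other shifts was not tested.

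TPM turned the sign of 6 of 31 in PS19 minus WT (Hnrnpa3, Hnrnpl, Hnrnpu, Hnrnpul2, Srsf11 and Srsf6), 7 in PS19 Zbp1+/- minus PS19 (Hnrnpa0, Hnrnpa1, Hnrnph2, Hnrnpl, Hnrnpll, Hnrnpr and Srsf2) and 1 in PS19 Zbp1+/- minus WT (Hnrnpc). Among these are Hnrnpa0, Hnrnpl and Hnrnpll, whose counting intervals against PS19 lay above 1 as deposited. Depth limits Srsf4 and Srsf12 most, which had 284 and 288 reads in PS19. Of all genes 2-fold apart between PS19 Zbp1+/- and PS19, 27.9% were higher as deposited, 10.5% under TPM and 14.6% under total reads.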
